A study of Mus musculus with 48 samples.

Results

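The comparison sets mouse embryonic stem cells with a single X chromosome and no Y (XO) at 36 h of differentiation against the same line before differentiation, at 0 h. The members are 4 of the 48 arrays of the series, 2 XO arrays at 36 h and 2 XO arrays at 0 h, and they were chosen by the titles of the arrays. Both conditions carry the replicate letters A and B. The XO cells and the XX cells set beside them are both labelled Pgk12.1, and the XY cells belong to the E14 line. How the XO cells arose from Pgk12.1, and whether they are a single clone, is not given in the sources used here.

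At 36 h the cells had been on fibronectin in N2B27 medium with Activin A and basic Fgf, changed daily. At 0 h they were in N2B27 with the Gsk3 inhibitor CT-99021, the Mek1 inhibitor PD-0325901 and LIF. All cells of the series had been adapted to that inhibitor medium beforehand. RNA was read on Affymetrix Mouse Exon 1.0 ST arrays, which carry probes to most exons of each gene. The unit is log2 expression for each Ensembl gene, so a difference of 1 is a doubling of the signal.

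Inhibition of Mek and Gsk3 together with LIF holds mouse embryonic stem cells in the naive state of the early epiblast. There the Erk cascade is kept low, Wnt-type signalling through beta-catenin is kept high and Stat3 is active. Removal of the inhibitors and addition of Activin and Fgf lets Erk signalling act, and cells leave the naive state and take up that of the epiblast after implantation, from which epiblast stem cells are derived. In female cells the same transition is also the period in which one X chromosome is silenced, which XO cells, with 1 X chromosome, do not need to do.

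The table names its 22745 genes by Ensembl identifiers alone, and 0 of them could be paired with a symbol in the RefSeq gene table of assembly GRCm38.p6 used here. For that reason no gene is given a name, a chromosome, a sequence or a function below, and the labelled cell type could not be checked against its defining markers. Each comparison prints no more than 2 identifiers in a direction. Array medians were 6.941 and 7.001 at 36 h (A and B) and 6.84 and 6.91 at 0 h. Between the letters, genes differed with a standard deviation of 0.35 at 36 h and 0.32 at 0 h. Nothing in the labels states that the letters stand for separate cultures. The p-values therefore cover the spread between arrays, which may be partly technical. Only 2 arrays a condition limit the precision. In these bulk samples a change in the share of cells that express a gene and a change in RNA per cell cannot be told apart.

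The comparison asks which genes had changed by 36 h of differentiation in cells without a second X chromosome. In XO cells 4296 genes, 18.9% of those tested, differed between 36 h and 0 h (limma, adjusted p under 0.05). Of these, 2708 rose (11.9% of all genes) and 1588 fell (6.98%). The split depends on the scaling of the arrays, because the median change of all genes was 0.080 as deposited. Centring arrays on their medians gave 2015 that rose and 2099 that fell, and quantile normalization 2146 and 2196, so 63.0% of calls were rises as deposited, 49.0% after centring and 49.4% after quantile normalization. Of the 4296 genes, 3603 were called in the same direction after centring and 3734 after quantile normalization. A fit without 1 XO array leaves 1 array in that condition and has less power, and each such fit called fewer genes. The median change of all genes was then 0.062 without the A array at 0 h and 0.10 without the B array at 0 h. It was 0.096 without the A array at 36 h and 0.069 without the B array at 36 h.

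**Figure D1:**
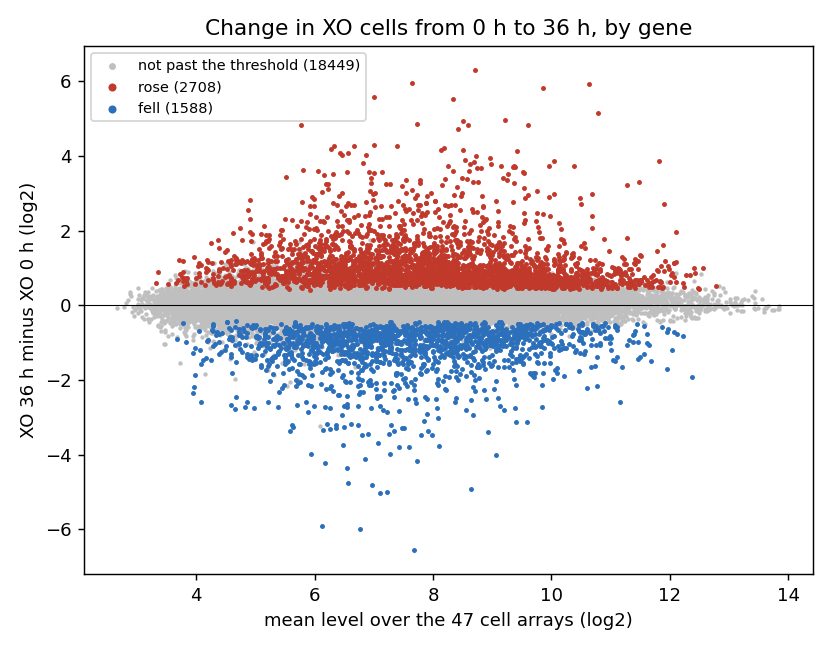
Each point is a gene, with its mean level over the 47 cell arrays (log2) on the horizontal axis and its XO 36 h minus XO 0 h difference (log2) on the vertical axis. The 2708 genes that rose are red, the 1588 that fell are blue and genes that did not pass are grey, with rises reaching 6.30 and falls reaching -6.56.

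The median size of a called change was 0.92 log2 units among genes that rose and 0.99 among genes that fell, and the smallest called changes were 0.41 and 0.42. At least 1 log2 unit of rise was measured for 1140 called genes (42.1% of the risers) and at least 1 of fall for 781 (49.2% of the fallers). A rise of at least 3 was found for 90 genes and a fall of at least 3 for 46. At 5 or more, 7 genes rose and 5 fell. After centring, the called changes of at least 1 were 934 rises and 944 falls. A further 135 genes changed by at least 1 log2 unit and did not pass. Both arrays at 36 h lay outside the range of both arrays at 0 h in all 4296 called genes, whereas that held for 60.5% of all genes. The test used the same arrays, so this separation describes the called genes and does not add to the test.

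The share of called genes varied with signal. Genes were divided into 4 classes of equal size by their mean over the 47 cell arrays, a signal that depends on the probes of a gene as well as on its RNA. In the lowest class 453 genes (7.97%) passed, with 263 that rose and 190 that fell. The second class held 1012 (17.8%), the third 1435 (25.2%) and the highest 1396 (24.6%). In the highest class 960 genes rose and 436 fell. The spread between replicates moved the other way, since the standard deviation of A minus B at 36 h was 0.44 in the lowest class and 0.21 in the highest. The median change of all genes was 0.035 in the lowest class and 0.15 in the highest. The classes were counted on the values as deposited only, so their split into rises and falls carries the limit of the scaling given above. Background levels of the arrays were not used here, so changes from or to low values can understate the true ones.

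**Figure D2:**
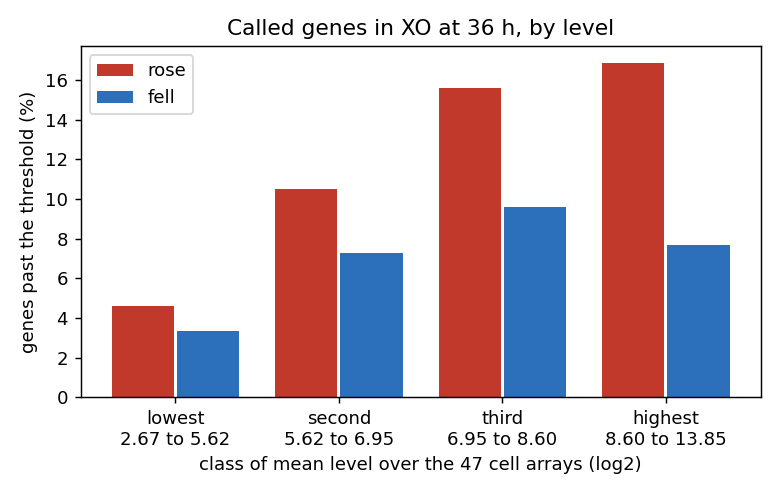
Bars give the percentage of genes in each class of mean level (log2, over the 47 cell arrays) that rose (red) or fell (blue) in XO cells between 0 h and 36 h. On the values as deposited, risers make up 4.62% of the lowest class and 16.9% of the highest, and fallers 3.34% and 7.67%.

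The gene ENSMUSG00000071235 had the largest measured rise among called genes. Its levels were 11.30 and 11.06 at 36 h (A and B) and 4.83 and 4.94 at 0 h in XO cells, so the 2 conditions lie far apart and do not overlap. The difference was 6.30 (SE 0.27, limma adjusted p = 2.69e-06). In the XO course it was still at 5.24 at 12 h, then at 7.18 at 18 h and 9.85 at 24 h. It stayed between 10.21 and 11.15 from 40 to 60 h, then stood at 9.73 at 66 h, 9.21 at 72 h and 10.76 at 84 h. XX cells had 10.35 and 9.93 at 36 h and 3.90 and 4.71 at 0 h, and the XO minus XX difference of changes, 0.46, did not pass (SE 0.38, limma adjusted p = 0.615). Most of its rise thus fell between 12 and 28 h in XO cells.

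ENSMUSG00000078922 came next among the rises. It had 10.58 and 10.64 at 36 h and 4.18 and 5.17 at 0 h in XO cells, a difference of 5.94 (SE 0.33, limma adjusted p = 8.44e-06). Its replicates were closer at 36 h than at 0 h. It was at 6.93 at 12 h, and it did not stay at its level of 36 h, with 8.81 at 56 h, 7.95 at 60 h and 8.12 at 84 h. In XX cells it had 7.67 and 6.95 at 36 h and 4.61 and 5.02 at 0 h, and the change was larger in XO than in XX by 3.44 (SE 0.47, limma adjusted p = 0.0144). That call was lost without XX 0 h B (3.24, limma adjusted p = 0.0505), XX 36 h B (3.09, 0.0605), XO 36 h A (3.48, 0.0530) or XO 36 h B (3.41, 0.0544), within 0.00655 to 0.0605 over the 14 alternatives. XY cells already had 7.21 and 7.40 at 0 h. Later in the course XX cells had 8.67 at 60 h and 8.25 at 84 h, above XO cells at those times. At 72 h they had 8.25, against 8.83 in XO. The larger XO value at 36 h thus did not last through the course.

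ENSMUSG00000042367 had the largest fall. It had 4.70 and 5.07 at 36 h and 11.35 and 11.54 at 0 h in XO cells, a difference of -6.56 (SE 0.17, limma adjusted p = 8.09e-07). The decline went through 10.08 at 12 h, 8.69 at 18 h, 7.20 at 24 h and 5.17 at 32 h, and from 40 to 84 h the gene lay between 4.84 and 5.94. XX cells had 7.58 and 7.71 at 36 h and 11.59 and 11.60 at 0 h. The XO minus XX difference of changes was -2.61 (SE 0.24, limma adjusted p = 0.00398), and it passed in all 14 alternatives. Over the whole XX course the lowest value was 6.87, above all XO arrays from 32 h on.

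ENSMUSG00000052316 had 4.61 and 5.19 at 36 h and 10.60 and 11.16 at 0 h in XO cells. It was lower at 36 h by a difference of -5.98 (SE 0.30, limma adjusted p = 4.49e-06), and by 24 h it was already at 5.66. XX cells had 6.68 and 6.15 at 36 h and 9.58 and 8.97 at 0 h, so they were lower than XO cells at 0 h and higher at 36 h. Between these times the lines were close, with 10.39 in XX and 10.42 in XO at 6 h, and 8.51 and 8.63 at 12 h. The difference of changes was -3.12 (SE 0.42, limma adjusted p = 0.0139). That call was lost without the A array of XX at 36 h (-2.86, limma adjusted p = 0.0609), without the A array of XO at 36 h (-2.83, limma adjusted p = 0.0519) and without the B array of XO at 0 h (-2.84, limma adjusted p = 0.0578). Over the 14 alternatives its adjusted p lay between 0.00589 and 0.0609. XY cells had 9.73 and 9.66 at 0 h.

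**Figure D3:**
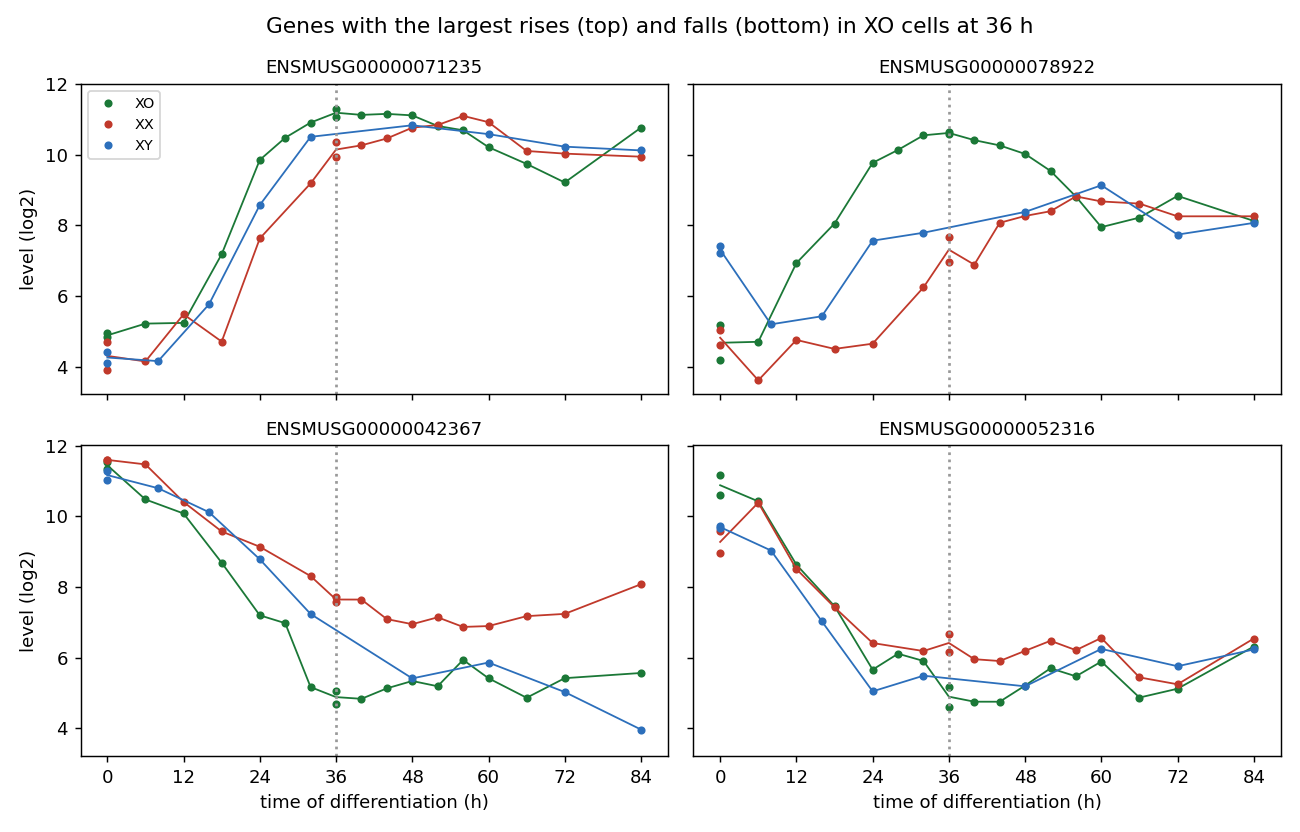
Levels (log2) of the genes with the largest rises (top) and falls (bottom) in XO cells are plotted against time of differentiation in hours, with a point for each array of XO (green), XX (red) and XY (blue) cells, lines through the means and a dotted line at 36 h. In XO cells at 36 h both risers stand above 10 and both fallers at or below 5.19, and ENSMUSG00000042367 stays at 6.87 or higher in all XX arrays.

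To see how far the 36 h changes recur on other arrays, genes were chosen on the A arrays of XO cells alone and measured on the B arrays. On A, a change of 1 log2 unit or more was measured at 36 h for 1312 genes that were higher and 975 that were lower. On B, the A-chosen risers had a median change of 1.28 at 36 h (quartiles 0.83 and 1.88), with 93.8% above 0, against a median of 0.078 and 56.7% above 0 for all genes. For the A-chosen fallers the median on B was -1.17 (quartiles -1.71 and -0.72), with 93.0% below 0, against 43.3% of all genes. The 1-unit mark was passed on B by 858 of the 1312 risers and 590 of the 975 fallers. With the letters exchanged, 1571 genes rose and 977 fell by at least 1 on B, and their medians on A were 1.08 and -1.17. The A change and the B change correlated with Pearson's r of 0.765 across all genes, which share arrays and are no replicates of each other. The standard deviation of their difference was 0.48.

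The B arrays of XO cells place the 36 h state within the whole course. The time points share the 0 h B array and have 1 array each, so the values are given without a test. The median change of the A-chosen risers was 0.27 at 6 h, 0.33 at 12 h, 0.62 at 18 h, 1.00 at 24 h and 1.16 at 28 h. It was 1.16 at 32 h, 1.28 at 36 h, 1.23 at 40 h and 1.32 at 44 h, so most of the rise was in place by 28 h. After that it ranged between 0.99 at 52 h and 1.23 at 84 h. The A-chosen fallers had a median of -0.25 at 6 h and -0.64 at 12 h. They then stood at -0.63 at 18 h, -0.79 at 24 h, -0.86 at 28 h and -1.06 at 32 h. Their medians went on to -1.33 at 40 h and -1.47 at 52 h, and were -0.98 at 72 h and -0.99 at 84 h. At 84 h, 56.9% of the A-chosen risers were at least 1 above 0 h and 49.5% of the fallers at least 1 below, against 10.7% and 5.42% of all genes.

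The spread of values within an array moved with the later part of that course. The interquartile range over genes was 2.81 at 52 h, 2.90 at 56 h, 2.77 at 60 h and 2.93 at 66 h. It was 3.21 at 72 h and 3.28 at 84 h. At 36 h it was 3.00 and 3.08, and at 0 h 3.03 and 2.99. Early in the course it was 3.10 at 6 h, 2.89 at 12 h and 3.02 at 18 h. It was also wide at 24 h (3.18) and 28 h (3.20), when the risers' median had reached most of its height, and was 3.08 at 32 h. The part of these ranges in the course was not tested.

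**Figure D4:**
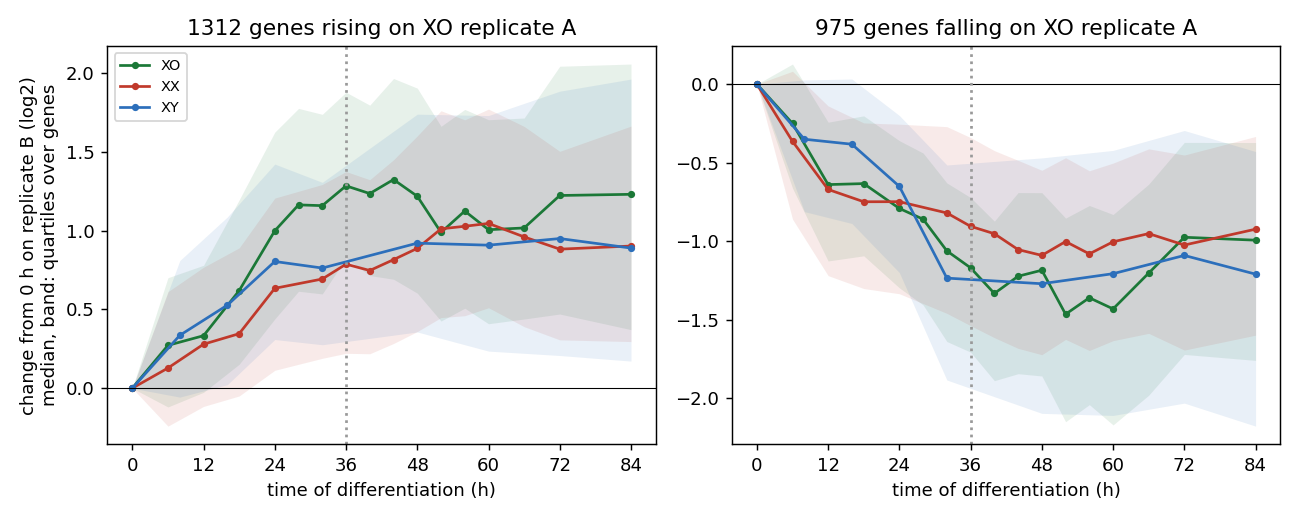
Median change from 0 h (log2) on B arrays, with bands for the quartiles over genes, is plotted against time in hours for the 1312 genes that rose (left) and the 975 that fell (right) by at least 1 on the A arrays of XO cells. At 36 h the median of the risers is 1.28 in XO (green) and 0.79 in XX (red), and that of the fallers -1.17 in XO and -0.91 in XX, with XY (blue) at 0.76 and -1.24 at 32 h.

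In the other lines, whose arrays took no part in the choice, the medians of these sets had the same sign as in XO. On the B arrays at 36 h, the A-chosen risers had a median change of 1.28 in XO and 0.79 in XX, and on the A arrays of XX it was 0.74. In XX, 85.5% of them were above 0 on B and 40.0% at least 1 above, against 56.0% and 5.90% of all genes, and 14.5% of them were below 0. The A-chosen fallers had a median of -1.17 in XO and -0.91 in XX on B, and -0.84 on the A arrays of XX. In XX, 84.9% of them were below 0 on B and 45.8% at least 1 below, against 44.0% and 4.94% of all genes. XY cells were not sampled at 36 h. Their risers' median was 0.76 at 32 h and 0.92 at 48 h, and their fallers' median was -1.24 at 32 h and -1.27 at 48 h, although the XY array at 32 h had a narrower interquartile range (2.86) than the other XY arrays (3.13 to 3.44).

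A choice made in XO can favour genes that change more in XO than in other lines, so the choice was also made in XX. The 940 genes that rose by at least 1 on the A arrays of XX had a median on B of 1.18 in XO and 1.25 in XX. For the 805 that fell, the medians on B were -0.96 in XO and -1.29 in XX. Each line thus showed the larger median for the genes chosen in it. For risers the XO minus XX gap in medians was 0.50 with the choice in XO and -0.072 with the choice in XX, and for fallers -0.26 and 0.33. These gaps rest on 2 arrays of each line and were not tested.

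Whether single genes changed by different amounts in XO and XX was tested directly as the XO change minus the XX change. That test called 376 genes, 1.65% of all (limma, adjusted p under 0.05), of which 225 had a higher XO minus XX value (0.989%) and 151 a lower one (0.664%). The smallest called difference was 0.94 among the higher and 0.98 among the lower, and no smaller difference passed with 2 arrays a condition. The split depends in part on the scaling, with 213 higher and 167 lower after centring and 204 and 178 after quantile normalization. The count is fragile. Leaving out any 1 XX or XO array left 1 array in that condition, with less power, and far fewer genes passed in most of those fits. The loss of power also bears on single genes whose call was lost without 1 array. Fitted on XX and XO arrays alone the count was 240.

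Among the 225 genes with the higher value, 164 were called as rising in XO and 7 as falling, and 54 were not called in XO. In XX, 54 of them were called as rising, 75 as falling and 96 not at all. The median change of these genes was 1.30 in XO and -0.12 in XX. Their median XO minus XX level was -0.81 at 0 h and 0.77 at 36 h. A choice on the difference of changes favours gaps of opposite sign at 0 h and 36 h, and the gap at 0 h was not tested. Of the 151 with the lower value, 92 were called as falling in XO, 8 as rising and 51 not at all, and in XX 33 fell, 71 rose and 47 were not called. Their median change was -0.90 in XO and 0.56 in XX, and their median XO minus XX level 0.27 at 0 h and -1.26 at 36 h. These calls and levels come from the same arrays as the difference, so they describe the 376 genes and do not add to the test. Opposite calls in both lines were found for 14 of the 225 and 12 of the 151. Of all genes called in XO, 271 (6.31%) passed the test of the difference.

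**Figure D5:**
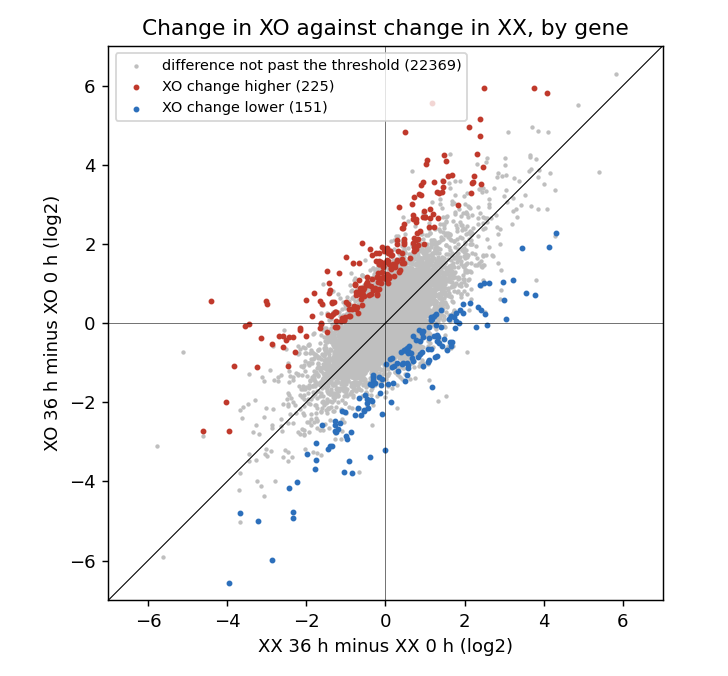
Each point is a gene, with the XX change on the horizontal axis and the XO change on the vertical axis (36 h minus 0 h, log2), and the diagonal marks equal change. The 225 genes with a higher XO change are red, the 151 with a lower one blue, and the other genes grey.

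ENSMUSG00000086981 had the largest positive difference of changes. It had 5.90 and 3.88 at 36 h and 4.60 and 4.04 at 0 h in XO cells, where the conditions overlap and the change of 0.57 did not pass (SE 0.52, limma adjusted p = 0.51). That change rests on single arrays: it was 1.57 without the B array of XO at 36 h, where it passed (limma adjusted p = 0.00855), and -0.44 without the A array, where it did not (limma adjusted p = 0.323). XX cells had 3.57 and 3.56 at 36 h and 8.09 and 7.86 at 0 h. The difference was 4.98 (SE 0.73, limma adjusted p = 0.0187), and in XX the gene fell (-4.41, limma adjusted p = 7.54e-04). In XY cells it had 7.93 and 7.66 at 0 h and 3.22 at 8 h. The call was lost without XX 36 h A (limma adjusted p = 0.0702), XX 36 h B (0.0854), XX 0 h B (0.0566), XO 0 h A (0.0533) or XO 0 h B (0.0748), and the difference stayed between 3.97 and 5.99 over the 13 alternatives that tested it.

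ENSMUSG00000022425 rose in XO cells. It had 9.36 and 9.68 at 36 h and 3.97 and 3.96 at 0 h, a change of 5.56 (SE 0.17, limma adjusted p = 9.90e-07). XX cells had 5.02 and 5.38 at 36 h and 4.05 and 4.01 at 0 h. This smaller rise also passed (1.16, SE 0.17, limma adjusted p = 0.00214), and XX cells went on to 6.08 at 48 h, 6.99 at 60 h and 8.10 at 84 h. The difference of changes at 36 h was 4.40 (SE 0.24, limma adjusted p = 4.73e-04). XO cells had 5.02 at 12 h, 7.66 at 18 h and 9.00 at 24 h, while XY cells had 5.35 at 16 h, 8.93 at 24 h and 9.01 at 32 h. This call held in all 13 alternatives that tested it.

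ENSMUSG00000040387 had the largest negative difference of changes. It had 3.90 and 4.55 at 36 h and 7.59 and 7.29 at 0 h in XO cells, a fall with a difference of -3.21 (SE 0.29, limma adjusted p = 1.44e-04). XX cells had 6.35 and 6.08 at 36 h and 6.53 and 5.94 at 0 h, so their conditions overlap. The difference of changes was -3.19 (SE 0.42, limma adjusted p = 0.0126). It was lost without XX 36 h A (limma adjusted p = 0.0609), XX 36 h B (0.0537) or XO 0 h A (0.0533), within a range of 0.00662 to 0.0609 over 13 alternatives. From 48 h on the gene lay between 3.82 and 6.11 in XO and between 4.67 and 5.99 in XX, and the lines overlapped. At 84 h it was at 6.11 in XO and 4.75 in XX. The gene with the next largest negative value is ENSMUSG00000052316, described above.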

How the data were processed

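Each deposited value is the authors' log2 expression level of an Ensembl gene on 1 array, computed with RMA in the affy package according to the submitters' processing notes. RMA subtracts background, aligns the arrays by quantiles and condenses the probes of a gene. The sources used here do not give the software version, the annotation of probes or the genome build. Columns were assigned to samples through the array titles. There is no read depth on arrays.

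Genes were tested in R 4.3.3 with limma 3.58.1, by linear models with moderated variances, two-sided, with Benjamini-Hochberg adjustment across 22745 genes and a threshold of 0.05. The model had 1 mean for each of the 5 duplicated conditions (XO and XX at 36 h and 0 h, XY at 0 h), so 10 arrays, with 5 degrees of freedom left for the spread and 3.87 from the prior. Contrasts were the XO change and the XO change minus the XX change. Printed genes are the 2 per direction with the largest value among called genes, for the XO change with arrays that do not overlap. Sets chosen on A arrays and measured on B were added after seeing the data. The members and lists were chosen with earlier results of these data known, and 27 gene lists could not be used without symbols.

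The simulated data had 22745 genes, with 100 changed at each size. Otherwise all conditions shared the XO means at 0 h, with independent normal noise. There the test of the XO change recovered 56% of changes of 1 and 90% of changes of 2 log2 units. The difference test recovered 20% and 73%, and each test made 11 false calls. Far more genes were called for the real XO change, so the adjusted threshold differed and these rates may not hold for the real data. Alternatives were other scalings, a filter on low levels, a trended prior, the XO (or XX and XO) arrays alone, a replicate block and leaving out single arrays.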

Additional observations from a re-analysis of the deposited data

Results flagged for a closer look

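The change from 0 h to 36 h differed between XO and XX cells for 376 genes by the test of the difference itself (limma, adjusted p under 0.05). Among the genes printed above, the XO minus XX difference of changes passed that test at 4.98 for ENSMUSG00000086981, 4.40 for ENSMUSG00000022425, 3.44 for ENSMUSG00000078922, -2.61 for ENSMUSG00000042367, -3.12 for ENSMUSG00000052316 and -3.19 for ENSMUSG00000040387. Conditions with 2 arrays are too small for a check of single arrays that stand apart.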

How the results depend on the processing

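The count of genes called in XO cells was 4296, and between 3766 and 4777 under the 6 alternatives that keep all XO arrays. Among these, the filter on low levels tested only 13647 genes. It called 4028, of which 3250 were among the 4296 in the same direction. Leaving out a single array gave 2217 to 2797. The count for the difference of changes was 376, with 240 on the XX and XO arrays alone, and 57 to 294 without a single array, with the lone array assumed to vary like the other groups. Without the A array of XX at 0 h it was 294, within 1.5 times of 376. A minus B correlated across genes at -0.0073 between XO at 0 h and XO at 36 h. Over the 10 pairs of conditions the correlation was -0.13 to 0.19. This can show only an offset shared by many genes. Whether the letters pair the arrays is thus not settled. With the letter as a replicate block the counts were 4054 and 275. The 4 genes printed for the XO change passed in all 10 alternatives. The XO change of ENSMUSG00000086981, 0.57, turned to -0.44 without the A array of XO at 36 h and was 1.57 without the B array. Centring put the medians of the A-chosen genes on B at 1.36 and -1.17, and quantile normalization at 1.33 and -1.20. Signal over background limits what low genes can show.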
